A study of Mus musculus with 32 samples.

Results

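Peaks of N6-methyladenosine (m6A) in long noncoding RNA (lncRNA) genes were described across 16 peak lists from mouse embryonic stem cells. A peak was a member when its summit, the position of highest signal, lay in the body of exactly 1 gene and that gene was annotated as lncRNA. Malat1, Neat1, Firre, Tug1, Meg3, Rian, Mirg, Kcnq1ot1 and Airn were left out by rule and held 447 peaks. Of 496760 peaks off the spike-in RNA, 10700 were members, in 1168 of 12727 annotated lncRNA genes. Another 16818 peaks had a summit in 2 or more genes of which at least 1 was lncRNA and were not members.

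The cells were C57BL/6 embryonic stem cells labelled as Mettl3 CKO or Mettl14 CKO, called knockouts here, and the control cells of each line. How complete each deletion was is not given in the sources used here. All groups were grown with 1000 U/ml LIF, 3 µM CHIR99021 (an inhibitor of the kinase GSK3) and 1 µM PD0325901 (an inhibitor of the kinase MEK). RNA carrying m6A was immunoprecipitated and sequenced (MeRIP-seq) from polyadenylated RNA, called mRNA here, and from chromatin-associated RNA depleted of ribosomal RNA, called caRNA. Each RNA fraction, line and genotype had 2 libraries, so there were 4 comparisons, each of 2 knockouts against 2 controls. The labels do not say whether the 2 libraries of a group came from separate cultures, so their spread may be technical. The 16 input samples were not used here.

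METTL3 is the catalytic subunit and METTL14 the RNA-binding partner of the enzyme complex that places m6A on nascent transcripts, mostly at adenosines within GGAC-like motifs. In messenger RNA the mark is concentrated near stop codons and in long internal exons. LncRNAs lack an open reading frame that is translated into a long protein, many of them stay in the nucleus or on chromatin, and in stem cells several are part of the regulation of pluripotency genes. A MeRIP peak depends on the abundance of the RNA as well as on its methylation, so a peak that is missing can mean less RNA or less mark, and the peak lists cannot tell these apart. Nor can fewer cells of a type and less RNA per cell be told apart in these bulk libraries.

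The genome sequence of the files' build was not used here, so the RNA under most peaks cannot be printed. RefSeq windows of 300 bases (build GRCm38.p6, the same as mm10) were used. They run from 250 bases before to 50 bases after an annotated start of a gene and matched 903 of the 1168 genes. In 14 of these genes, 64 peaks had their summit inside the window and on the strand of the gene. The 4 windows below are those with a summit in the most lists, in the direction of the gene, with each GGAC in capitals. They show the RNA or DNA around an annotated start, which need not be the outer end of the gene body. In Trmt61b, Ino80dos and Gm30296 there were summits before that start that still lay in the body, so the start was an internal one.
Trmt61b: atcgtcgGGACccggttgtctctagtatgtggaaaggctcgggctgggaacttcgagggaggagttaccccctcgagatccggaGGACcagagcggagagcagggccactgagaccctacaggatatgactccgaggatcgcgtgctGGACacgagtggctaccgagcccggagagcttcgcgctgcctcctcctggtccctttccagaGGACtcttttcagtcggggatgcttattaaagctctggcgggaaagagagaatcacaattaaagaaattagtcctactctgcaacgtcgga
Ino80dos: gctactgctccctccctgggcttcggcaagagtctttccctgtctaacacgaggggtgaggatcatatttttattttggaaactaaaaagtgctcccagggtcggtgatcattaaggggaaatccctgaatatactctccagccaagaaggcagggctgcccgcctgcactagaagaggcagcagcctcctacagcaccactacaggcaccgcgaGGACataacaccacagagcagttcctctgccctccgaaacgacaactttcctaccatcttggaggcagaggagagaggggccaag
Gm13261: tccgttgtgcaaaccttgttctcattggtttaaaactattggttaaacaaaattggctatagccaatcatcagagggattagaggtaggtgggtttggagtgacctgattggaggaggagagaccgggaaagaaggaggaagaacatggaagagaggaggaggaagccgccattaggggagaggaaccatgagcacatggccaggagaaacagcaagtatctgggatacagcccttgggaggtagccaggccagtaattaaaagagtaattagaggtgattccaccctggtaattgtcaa
Gm30296: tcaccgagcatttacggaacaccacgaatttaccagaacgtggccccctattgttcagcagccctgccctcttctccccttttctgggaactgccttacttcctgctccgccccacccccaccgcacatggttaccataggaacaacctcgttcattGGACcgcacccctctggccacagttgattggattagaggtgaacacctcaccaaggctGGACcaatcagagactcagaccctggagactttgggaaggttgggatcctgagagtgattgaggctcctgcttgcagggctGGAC
The windows lie at chr17:71598232-71598531 on the minus strand, chr1:63114490-63114789 on the plus strand, chr2:10365070-10365369 on the minus strand and chr12:102730437-102730736 on the plus strand.

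The Trmt61b window, of a gene named for a mitochondrial tRNA methyltransferase but typed as lncRNA in this annotation, held a summit in all 16 lists and 4 GGAC on its own strand, with a fold enrichment between 3.12 and 12.2. Fold enrichment is the authors' ratio of immunoprecipitated signal over background at a peak. The Ino80dos window, antisense to the chromatin remodelling gene Ino80d by its name, held summits in 11 lists between positions 86 and 89 and a single GGAC at position 216, 129 bases from the median summit. None of its summits came from the 4 Mettl3 knockout lists, where the peaks of this gene lay elsewhere in its body, and the gene itself was marked in all 16 lists. The Gm13261 window held summits in all 8 caRNA lists and 1 mRNA list, with no GGAC on its own strand. The Gm30296 window held summits in 5 caRNA and 3 mRNA lists and 3 GGAC, the nearest 1 base from the median summit. For comparison, GGAC was present on the gene's strand in 65.6% of the 32851 RefSeq windows, and on either strand in 87.7%, beside 3 of these 4 windows on the gene's strand.

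Some lncRNAs are also the precursors of microRNAs, which are cut from hairpins in the transcript. In all, 21 marked genes held 29 annotated hairpins. The mature sequences are shown for 3 hosts, Mir22hg and Dleu2, which were marked in all 16 lists, and E130102H24Rik, whose peak lay nearest to its hairpin among the 3 and which was lost in 2 comparisons, with the seed (bases 2 to 8) in capitals.
miR-22-3p (Mir22hg): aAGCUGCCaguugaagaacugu
miR-16-5p (Dleu2): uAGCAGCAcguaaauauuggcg
miR-101a-3p (E130102H24Rik): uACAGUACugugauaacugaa
RefSeq places them at chr11:75463772-75463793 on the plus strand, chr14:61631936-61631957 on the minus strand and chr4:101346957-101346977 on the minus strand. No seed is shared among them. The nearest peak summit on the host's strand lay 1670 nt from the Mir22 hairpin, 3964 nt from the Mir16-1 hairpin and 136 nt from the Mir101a hairpin.

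The 16 lists held between 16537 and 45241 peaks. Of 10 embryonic stem cell markers, between 7 and 9 carried a peak in each library. Of 8 feeder fibroblast markers, between 1 and 8 did. The fibroblast count was 4 and 6 in the mRNA Mettl3 controls and 6 and 6 in the knockouts, 1 and 1 against 4 and 4 in mRNA of the Mettl14 line, 2 and 3 against 7 and 8 in caRNA of the Mettl3 line, and 4 and 4 against 5 and 5 in caRNA of the Mettl14 line. Its part in the results on genotype was not tested.

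Most marked lncRNA genes were unnamed loci with few peaks. Of the 1168 genes, 783 had a Gm or LOC symbol, 263 a Rik symbol and 122 another name. Peaks of the 16 lists were merged by strand where they overlapped by at least 1 bp, which gave 2302 lncRNA regions among 80081 regions in all. A total of 689 genes held a single region and 250 held 3 or more. Marked genes were longer than the annotated set, with a median length of 13900.5 bp against 8429 bp over all lncRNA genes. The most regions, 16 each, lay in Lncenc1 (chr13:97434970-97497664), a lncRNA of naive embryonic stem cells, and in AW822252 (chrX:53696922-53716578). Pvt1, the lncRNA next to Myc, held 15 regions, and Gm1976 (chr17:94759942-94834799) and Gm30605 (chr8:80313073-80395185) held 13 each.

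LncRNA regions recurred in fewer lists than regions in general. In all 16 lists lay 93 lncRNA regions, or 4.04%, against 8.39% of all regions, and in 1 list lay 576, or 25.0%, against 21.0%. At the level of genes, 89 lncRNA genes (7.62%) were marked in all 16 libraries, against 35.1% of all genes marked in any library. A single library marked 246 lncRNA genes (21.1%), against 6.21% of all marked genes. The gap to the background was wider for genes than for regions. A gene is marked when any of its regions is, so the gene shares depend on the regions per gene, 1 at the median for lncRNA genes.

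**Figure D1:**
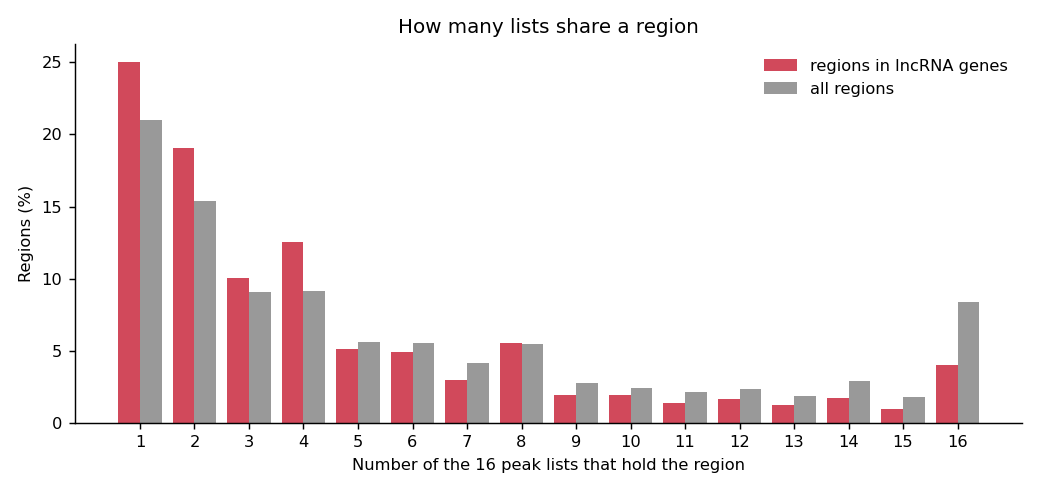
Share of regions (vertical axis, percent) by the number of the 16 peak lists that hold them (horizontal axis), for the 2302 regions in lncRNA genes and for all 80081 regions. LncRNA regions are more often in 1 or 2 lists (25.0% and 19.03%) and less often in all 16 (4.04% against 8.39%).

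The 6 genes with the highest lowest fold among those marked in all 16 libraries were Gm32985 (chr1:113930925-113935304), 2410003L11Rik (chr11:97598511-97622893), Gm10069 (chr6:128438757-128503281), Gm40017 (chr2:174918419-174974406), 2610507I01Rik (chr11:59197793-59202431) and LOC115489488 (chr2:160604358-160620067). The strongest peak of Gm32985 had a fold of 15.3 and 14.03 in mRNA of the Mettl3 controls against 27.7 and 30.4 in their knockouts, and 9.89 and 13.1 against 16.3 and 31.0 in the Mettl14 line. In caRNA it had 17.4 and 22.9 against 23.3 and 30.8 in the Mettl3 line and 24.4 and 29.7 against 31.3 and 30.6 in the Mettl14 line. Every list thus held a strong Gm32985 peak, knockouts included, with the knockout folds above both controls in all 4 comparisons. The number of genes with this pattern was not counted. In Mettl14 mRNA the median fold of protein-coding peaks was 4.51 and 4.32 in controls against 5.34 and 5.30 in knockouts. In Mettl3 caRNA it was lower in knockouts, at 5.05 and 4.91 against 4.55 and 4.76, and in the other comparisons the groups overlapped. The lowest fold of the other 5 genes over the 16 lists was 7.75 in LOC115489488. Folds of different lists are set side by side as the authors' values, not as tested levels.

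Chromatin-associated RNA carried a larger share of its peaks in lncRNA genes than mRNA. In mRNA the share was 1.89% and 1.79% in the Mettl3 controls, 1.56% and 1.63% in the Mettl3 knockouts, 1.86% and 1.82% in the Mettl14 controls and 2.14% and 2.15% in the Mettl14 knockouts. In caRNA it was 1.93% and 2.04%, then 2.14% and 2.08%, in the Mettl3 line, and 2.68% and 2.68%, then 2.43% and 2.47%, in the Mettl14 line. Within each line and genotype both caRNA libraries lay above both mRNA libraries. The mean was 2.31% ± 0.296 (SD, n = 8) in caRNA and 1.86% ± 0.213 (SD, n = 8) in mRNA, a difference of 0.452 percentage points (exact two-sided permutation test within line and genotype, p = 0.00154, the smallest it can give, adjusted p = 0.0046 over 18 tests). The difference was 0.188 points (p = 0.0185, the same exact test) when each list was limited to its 10000 strongest peaks. That limit, here and below, goes by the deposited −log10 p and not by fold. With only peaks on the strand of the gene the difference was 0.115 points (p = 0.0293, the same exact test). That setting, here and below, also drops the peaks of lncRNA genes without a RefSeq strand, while the whole list stays the denominator. The part of these genes in the smaller difference was not tested.

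The number of marked lncRNA genes followed. A mean of 543 ± 61.3 genes was marked per caRNA library and 256.5 ± 44.4 per mRNA library (SD, n = 8 each), a difference of 286.6 genes (exact permutation test, p = 0.00154, adjusted p = 0.0046). The caRNA lists were also longer, with 37955 to 45241 peaks against 16537 to 23380, and with 10000 peaks per list the difference was 17.25 genes (p = 0.0123, the same exact test). Over all libraries of a fraction, 1067 lncRNA genes were marked in caRNA and 490 in mRNA, 389 of them in both. Peaks in caRNA alone marked 678 genes, 58.0% of the marked lncRNA genes against 21.3% of all marked genes, and peaks in mRNA alone marked 101, or 8.65% against 5.00%.

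By the stricter rule of a peak in all 8 libraries of one fraction and none of the other, 48 lncRNA genes (4.11%) were confined to caRNA, against 2.38% of all marked genes. The 5 with the highest lowest fold were Gm51805 (chr10:62865670-62910643), Otx2os1, antisense to the homeobox gene Otx2 by its name, Gm9886 (chr19:38309146-38327291), Gm41937 (chr1:120076086-120089869) and Gm32130 (chr16:95764229-95802344). Otx2os1 had folds of 13.0 and 15.6 in the Mettl3 controls, 17.2 and 10.9 in their knockouts, 7.61 and 7.25 in the Mettl14 controls and 12.1 and 10.96 in their knockouts. Its peaks were strong in caRNA of every group and no mRNA list held any. The number was 28 with only peaks on the strand of the gene and 6 with 10000 peaks per list. The first setting also drops genes for which RefSeq gave no strand, such as Gm51805 and Otx2os1. Gm32130, whose 29 peaks all lay on the strand opposite to the gene, is one of those that drop out by strand.

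Only 2 lncRNA genes met the rule the other way, 0.171% of the marked lncRNA genes against 0.163% of all marked genes. Gm17501 (chr3:145650077-145677827) had folds of 7.64 and 9.51 against 11.3 and 11.9 in mRNA of the Mettl3 line and 5.22 and 4.69 against 9.49 and 9.34 in that of the Mettl14 line. 5033430I15Rik (chr13:45965224-45966508) had 10.4 and 8.71 against 8.38 and 7.04, and 4.58 and 4.29 against 6.36 and 6.55. Both were thus marked in all mRNA libraries irrespective of genotype and in no caRNA list.

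The lines differed as well. The share of peaks in lncRNA genes was 2.28% ± 0.340 in the 8 libraries of the Mettl14 line and 1.88% ± 0.211 in the 8 of the Mettl3 line (SD), a difference of 0.396 points (exact permutation test within fraction and genotype, p = 0.00617, adjusted p = 0.0111). These SDs span both fractions and both genotypes, and the line cannot be told apart from the preparation of its libraries. The difference was 0.215 points with the 10000 strongest peaks of each list (exact permutation test, p = 0.0278) and 0.219 points with peaks on the strand of the gene (exact permutation test, p = 0.00309). In the mRNA controls, 1.86% and 1.82% in the Mettl14 line overlapped 1.89% and 1.79% in the Mettl3 line, while at 10000 peaks per list 1.63% and 1.51% lay above 1.32% and 1.14%. Gm19448 (chr13:65639768-65660118) was the only lncRNA gene marked in all 8 Mettl3-line libraries and none of the Mettl14 line, where 0.258% of all marked genes met that rule. Its folds ran from 5.44 to 14.2. Gm35297 (chr7:34522436-34546198) was the only one the other way, beside 0.0747% of all marked genes, with folds from 3.10 to 9.06.

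The knockout share of lncRNA peaks differed from the control share in opposite directions in the lines and fractions. In the values given above the 2 knockouts lay below both controls in mRNA of the Mettl3 line (-0.251 points between the means) and in caRNA of the Mettl14 line (-0.236 points), and above both controls in mRNA of the Mettl14 line (0.307 points) and in caRNA of the Mettl3 line (0.124 points). Over the 4 comparisons together the mean difference, knockout minus control, was -0.0141 points (exact permutation test, p = 0.846, adjusted p = 0.846). The number of marked lncRNA genes gave a mean difference of 21.9 genes (exact permutation test, p = 0.384, adjusted p = 0.407). The mRNA libraries of the Mettl3 line marked 272 and 260 genes in controls and 226 and 244 in knockouts, and in that of the Mettl14 line 206 and 209 against 328 and 307. In caRNA the numbers were 445 and 485 against 581 and 518 in the Mettl3 line and 618 and 616 against 528 and 554 in the Mettl14 line.

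Whole lists grew or shrank with the same sign in 3 of the 4 comparisons. The Mettl14 mRNA lists held 16537 and 17738 control peaks against 23380 and 22654 knockout peaks, the Mettl3 caRNA lists 37955 and 40090 against 45241 and 41162, and the Mettl14 caRNA lists 42514 and 41315 against 38272 and 39385. The Mettl3 mRNA lists differed little in length, with 22165 and 22592 against 22521 and 23239. With the 10000 strongest peaks of each list, the mRNA shares of control and knockout overlapped, at 1.32% and 1.14% against 1.24% and 1.27% in the Mettl3 line and at 1.63% and 1.51% against 1.53% and 1.53% in the Mettl14 line. The caRNA shares did not, at 1.25% and 1.43% against 1.79% and 1.62% in the Mettl3 line and 1.79% and 1.68% against 1.48% and 1.63% in the Mettl14 line. In caRNA the direction of each line was therefore the same at equal list length, and in mRNA the groups were no longer apart.

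**Figure D2:**
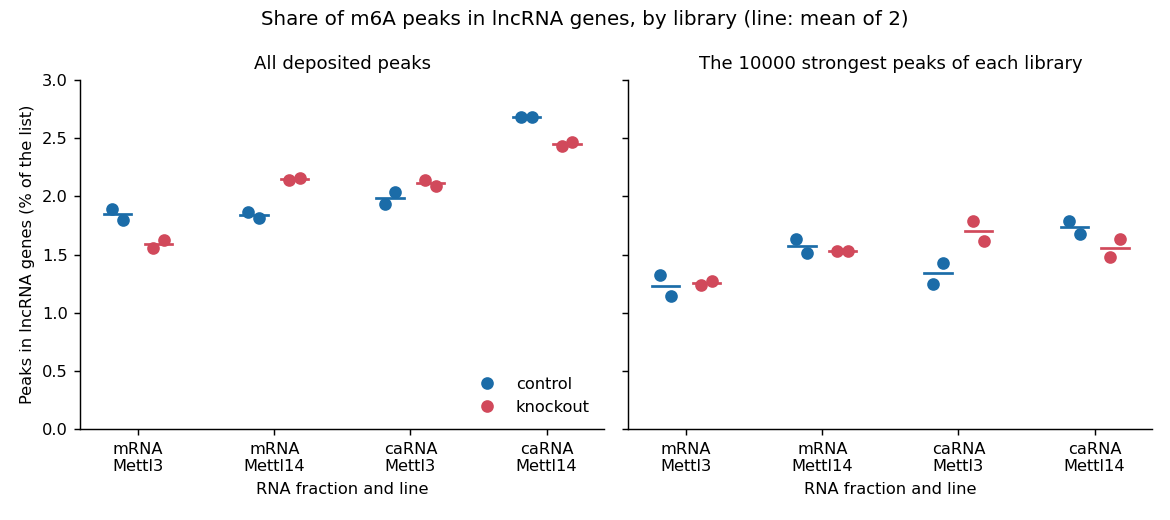
Percent of peaks in lncRNA genes (vertical axis) in each library, by RNA fraction and line (horizontal axis), with control libraries in blue, knockout libraries in red and a line at the mean of 2. On the left all deposited peaks are used and the groups are apart in all 4 comparisons. On the right each list is limited to its 10000 strongest peaks by −log10 p and only the caRNA groups are apart.

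A lost region had peaks in the 2 control lists of its comparison but none in the knockout lists, a gained region the reverse, and a retained region peaks in each of the 4 lists. In mRNA of the Mettl3 line 65 of 349 lncRNA regions were lost (18.6%) against 10.2% of all regions, and 23 of 287 were gained (8.01%) against 9.95%. Mettl14 mRNA had 8 of 258 lost (3.10%) against 6.33%, and 123 of 420 gained (29.3%) against 25.6%. With all deposited peaks, then, the lost share was above the gained share in mRNA of the Mettl3 line and below it in mRNA of the Mettl14 line. At the 10000 strongest peaks per list, Mettl3 mRNA had 10.8% lost and 13.3% gained, the reverse order, and Mettl14 mRNA 10.6% lost and 11.3% gained. Mettl3 caRNA had 136 of 624 lost (21.8%) against 16.4%, and 174 of 712 gained (24.4%) against 16.9%. Mettl14 caRNA had 202 of 945 lost (21.4%) against 15.7%, and 90 of 762 gained (11.8%) against 9.16%.

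In caRNA, then, lncRNA regions changed more often than the background in both directions, in both lines. At 10000 peaks per list the mRNA excess was gone, with 10.8% lost against 12.2% of all regions in the Mettl3 line and 11.3% gained against 12.3% in the Mettl14 line. In caRNA of the Mettl3 line 40.3% were then gained against 24.0%, while loss, at 31.2% against 30.4%, stood at the background. The Mettl14 caRNA regions were lost in 25.2% of cases against 14.7%, and gain, at 14.5% against 14.7%, stood at the background. Counting every lncRNA gene that covers a summit, also where another gene covers it, the lost share in mRNA of the Mettl3 line was 12.3% against 10.2%.

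Single libraries of a group gave similar values. Of the regions in both Mettl3 mRNA controls, 25.2% ± 1.62 of lncRNA regions were missing from a single knockout list, against 14.9% ± 0.454 of all regions (SD, n = 2). Of those in both Mettl14 mRNA knockouts, 36.2% ± 1.01 were missing from a single control list, against 31.0% ± 2.70. In caRNA, 26.8% ± 2.61 of the control lncRNA regions were missing from a single Mettl3 knockout list and 28.0% ± 0.0748 from a single Mettl14 knockout list, against 21.4% ± 2.11 and 21.6% ± 0.949 of all regions.

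The same calls were made on genes. For Mettl3 mRNA, 37 of 232 lncRNA genes were lost (15.9%) against 4.48% of all genes, 16 of 196 were gained (8.16%) against 5.14%, and 169 were retained. For Mettl14 mRNA, 4 of 180 were lost (2.22%) against 1.97%, 72 of 279 were gained (25.8%) against 14.2%, and 167 were retained. For Mettl3 caRNA, 52 of 398 were lost (13.1%) against 5.9%, 90 of 454 were gained (19.8%) against 5.01%, and 307 were retained. For Mettl14 caRNA, 78 of 538 were lost (14.5%) against 5.76%, 37 of 463 were gained (7.99%) against 3.32%, and 389 were retained. In gains of Mettl3 mRNA and losses of Mettl14 mRNA, the lncRNA share lay below that of all regions but above that of all genes. A gene is lost only when all its peaks are, so these shares depend on the number of regions per gene, which was 1 at the median for lncRNA genes.

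**Figure D3:**
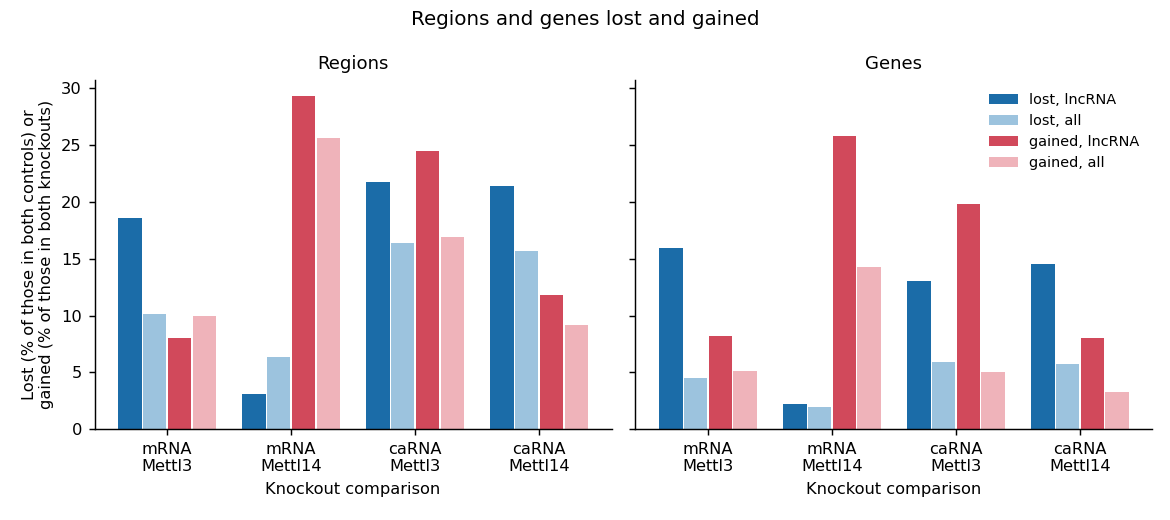
Percent of regions (left) and genes (right) lost, out of those in both controls, or gained, out of those in both knockouts, by comparison (horizontal axis), for lncRNA members in dark and for all regions or genes in light bars. With all deposited peaks, 29.3% of lncRNA regions were gained in mRNA of the Mettl14 line and 18.6% lost in mRNA of the Mettl3 line, and at 10000 peaks per list these were 11.3% and 10.8%.

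In mRNA of the Mettl3 line, the 4 lost genes with the strongest control peaks were 1110019D14Rik (chr6:13871569-13896421), Banf2os, antisense to Banf2 by its name, 4930444M15Rik (chr14:76514558-76520855) and 6030442K20Rik (chr1:132466628-132477064). The single region of 1110019D14Rik, on the gene's own strand, had folds of 7.89 and 8.26 in the controls and no peak in the knockouts. The same gene was lost in caRNA of that line, with 5.61 and 4.88 in the controls, and retained in mRNA of the Mettl14 line, with 12.6 and 14.4 against 9.28 and 9.66. Banf2os was lost here, with 6.76 and 7.25 in the controls, and gained in mRNA of the Mettl14 line, with 5.78 and 5.84 in the knockouts. In caRNA it was retained in both lines, with folds up to 16.7. Loss in one fraction or line was therefore not loss in the others for this gene.

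The 4 strongest gained genes of this comparison were Gm46558 (chr16:85899800-85905197), Lockd, A930005H10Rik (chr3:115881578-115888130) and Gm3134 (chr8:89041243-89071019). Lockd, transcribed downstream of the cell cycle inhibitor gene Cdkn1b, had folds of 6.14 and 6.60 in the 2 knockouts and no control peak. Lockd was retained in caRNA of the same line, with 12.0 and 4.95 against 6.60 and 7.26. A930005H10Rik was gained in mRNA of both lines, with 5.96 and 6.57 in the Mettl3 knockouts and 5.13 and 4.60 in the Mettl14 knockouts. It was lost in caRNA of the Mettl3 line, with 4.97 and 3.81 in the controls. The strongest retained genes were 2410003L11Rik, Gm38561 (chrX:163958741-163983833) and Gm32985.

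In mRNA of the Mettl14 line only 4 genes were lost, namely 2010110K18Rik, 4732440D04Rik (chr1:6209866-6216612), Gm13710 (chr2:84500748-84506873) and 2010204K13Rik (chrX:7411817-7422988). Their control folds lay between 2.84 and 5.64. The 4 strongest of the 72 gained genes were Gm41492 (chr16:91134476-91200552), Gm52881 (chr6:49018518-49020520), Gm26812 (chr8:121850186-121879518) and Gm14963 (chr19:6268794-6276578). Gm41492 had 9.59 and 10.8 in the knockouts and no control peak in mRNA, and was marked in all 8 caRNA lists with folds from 8.03 to 15.8. Gm26812 had 7.41 and 9.23 in the Mettl14 knockouts, was retained in mRNA of the Mettl3 line with 5.64 and 5.32 against 7.20 and 5.70, and was marked in all 8 caRNA lists. Gm14963 was gained in mRNA of both lines, with 5.71 and 5.27 in the Mettl3 knockouts and 7.64 and 7.36 in the Mettl14 knockouts. Each of these 4 genes had a peak in other groups of libraries, so none was marked in the Mettl14 knockout mRNA alone.

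Gt(ROSA)26Sor, the transcript of the locus that is widely used to place transgenes in mice, was also gained here. It was singled out after its values were seen. It had 13.9 and 7.31 in the Mettl14 knockouts and no control peak in mRNA, 9.55 and 12.2 against 8.20 and 9.34 in mRNA of the Mettl3 line, and a peak in every caRNA list. The mRNA Mettl14 controls were thus the only libraries without it.

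In caRNA of the Mettl3 line, the strongest lost genes were 1500015A07Rik, Gm39714 (chr1:180875512-180885858), Gm30821 and Gm34035 (chr17:3253620-3283309). Gm39714 had 7.11 and 9.07 in the controls and none in the knockouts, while in mRNA of the same line it was retained, with 7.83 and 7.13 against 6.56 and 5.85. 1500015A07Rik had 7.24 and 8.05 in the controls and was retained in mRNA with 12.9 and 19.9 against 12.0 and 9.38. Gm34035 had 7.39 and 6.52 in the controls and was retained in mRNA with 7.80 and 7.37 against 9.80 and 10.1. For 3 of these 4 genes, then, the peak left the caRNA lists of the knockout and stayed in its mRNA lists.

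The strongest gained genes there were Gm34032 (chr16:31476082-31578483), A930037H05Rik (chr11:119461200-119491235), Gm39236 (chr8:104059872-104066136) and 6030407O03Rik (chr1:73618381-73864466). The first 3 had a peak in no other library. Gm34032 had 10.4 and 8.20 in the 2 knockouts, A930037H05Rik had 8.48 and 9.03, and Gm39236 had 8.001 and 7.96. 6030407O03Rik had 7.74 and 9.01 in the knockouts and was also marked in all 4 caRNA libraries of the Mettl14 line, with folds from 4.34 to 5.54. Gm30363 (chr14:21449949-21483620) was the strongest retained gene, with 20.1 and 20.8 against 20.1 and 21.6.

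The strongest lost genes in caRNA of the Mettl14 line were Gm41642 (chr17:84477267-84504655), LOC115489019 (chr19:6132464-6141914), Gm35934 (chr8:18883131-18902291) and Gm39916 (chr2:121937404-121943945). All 4 were marked in these 2 control libraries and in no other library of the series. Gm41642 had 9.46 and 11.1, LOC115489019 had 7.29 and 6.86, Gm35934 had 6.82 and 6.52 and Gm39916 had 6.26 and 5.98. The strongest gained genes, Gm29979 (chr11:77896970-77907238), Gm30122 (chr10:78248880-78264096), A730081D07Rik (chr13:40956416-41001146) and Gm12866 (chr4:119054790-119069111), had knockout folds between 5.30 and 8.40. Each of these gained genes also had a caRNA peak in at least 1 library of the Mettl3 line.

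Of the 1168 lncRNA genes, 153 were lost in 1 comparison (13.1%), against 9.91% of all 14724 marked genes, and 9 in 2 comparisons (0.771%), against 0.89%. Gained were 195 in 1 comparison (16.7%), against 15% of all marked genes, and 10 in 2 (0.856%), against 1.05%. No lncRNA gene was lost or gained in 3 or 4. The shares changed the same way in 2 comparisons were thus near those of all marked genes. Every comparison has its own controls. Gm13421 (chr2:27540426-27546090) was lost in both Mettl3 comparisons, with 5.07 and 5.43 in the mRNA controls and 5.10 and 4.51 in the caRNA controls. Gm32404 (chr6:124857807-124860770), Gm38973 (chr7:27649195-27654232) and Gm45914 (chr9:21955284-21956006) were lost in caRNA of both lines. Gm38973 had 4.42 and 5.18 in the Mettl3 and 3.996 and 4.70 in the Mettl14 controls, and was retained in mRNA of both lines, with 9.32 and 9.70 against 5.23 and 6.21 in the Mettl3 and 13.2 and 13.8 against 12.9 and 11.7 in the Mettl14 line.

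Particl, a lncRNA next to Mat2a, the gene of a methionine adenosyltransferase that makes the methyl donor, was lost in mRNA of the Mettl3 line and in caRNA of the Mettl14 line. It had 5.19 and 6.22 in the mRNA Mettl3 controls and 7.55 and 5.80 in the caRNA Mettl14 controls, and no knockout peak in either. Mettl14 mRNA retained it, with 6.85 and 5.66 against 6.57 and 5.37. E130102H24Rik, the host of miR-101a printed above, was lost in the same 2 comparisons. It had 4.83 and 4.31 in the mRNA Mettl3 controls and 4.87 and 5.87 in the caRNA Mettl14 controls, and was retained in mRNA of the Mettl14 line with 3.53 and 2.97 against 5.66 and 6.94. Gm30928 (chr7:126337036-126351774) was lost in that pair of comparisons too, and A130051J06Rik (chr15:95787889-95804461), like 1110019D14Rik, in both Mettl3 comparisons.

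H19, the imprinted lncRNA next to Igf2, was the one gene of the fixed lists gained in 2 comparisons. It had no peak in any of the 4 Mettl14-line controls, folds of 3.68 and 3.20 in the mRNA knockouts and 5.31 and 3.79 in the caRNA knockouts. In the Mettl3 line its mRNA was marked in all 4 libraries, with 5.47 and 2.28 against 4.24 and 1.98, and its caRNA in a single knockout library, with 4.14. The gained region, at chr7:142577635-142578023 on the minus strand in caRNA, lay 515 nt from the hairpin of Mir675 at the nearest summit. Gm29843 (chr5:116802696-116804286) and Gm32853 (chr5:122378624-122393311) were likewise gained in both Mettl14 comparisons and were marked in no other library. Gm39350 (chr9:61585139-61595318) and 2900076A07Rik (chr7:81523550-81531498) were gained in caRNA of both lines and marked only there.

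The other genes gained in 2 comparisons were A930005H10Rik and Gm14963 (above), Gm12610 (chr4:89295180-89518621) in both Mettl3 comparisons, and 2810002D19Rik (chr2:94406707-94411682) and 9530062K07Rik (chr6:116199410-116207993) in mRNA of the Mettl3 line and caRNA of the Mettl14 line. Most calls rested on a peak outside the 10000 of highest −log10 p in at least 1 of their lists, though not always on a low fold. Over the genes named by rule, 41 lost and 43 gained calls were made, and 1 and 4 of them were made again with the 10000 strongest peaks of each list. With only peaks on the strand of the gene, 29 of the 41 and 26 of the 43 were made again. That setting also drops genes without a RefSeq strand, 28 of those named by rule, Banf2os and H19 among them. Calls on these genes could not be made again, whatever the strand of their peaks. Gm3134, Gm13710, Gm34035, Gm39236, Gm39916, Gm29979 and Gm39350, each described with such a call above, held no peak on their own strand. Of the peaks of 4930444M15Rik 1 of 30 was. All 41 and 43 were made again with a −log10 q of at least 5. Under any setting of the peak or gene rule tried on them, none turned from lost to gained or back.

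Stem cell lncRNAs were the best represented of the gene lists. The list holds the Platr genes, which were found as pluripotency-associated transcripts, and lncRNAs such as Lncenc1, Tunar, Halr1 and Sox2ot. Of 29 in the annotation 24 were marked, 8 in all 16 libraries and 15 in all 8 caRNA libraries. In mRNA 10 were retained in the Mettl3 line and 12 in the Mettl14 line, and in caRNA 15 and 17. Of those marked in both controls, 0 of 11 were lost in Mettl3 mRNA, beside 4.48% of all genes, 0 of 13 in Mettl14 mRNA, beside 1.97%, and 0 of 18 in Mettl3 caRNA, beside 5.9%. In Mettl14 caRNA 2 of 20 were lost, Platr27 and Platr30, beside 5.76%. Of those marked in both knockouts, 1 of 11 was gained in Mettl3 mRNA (Platr11), beside 5.14%, and 1 of 13 in Mettl14 mRNA (Tunar), beside 14.2%. In caRNA 2 of 17 were gained in the Mettl3 line (Platr26 and Mir124a-1hg), beside 5.01%, and 0 of 17 in the Mettl14 line, beside 3.32%. Both peaks of Platr26 lay on the strand opposite to the gene.

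**Figure D4:**
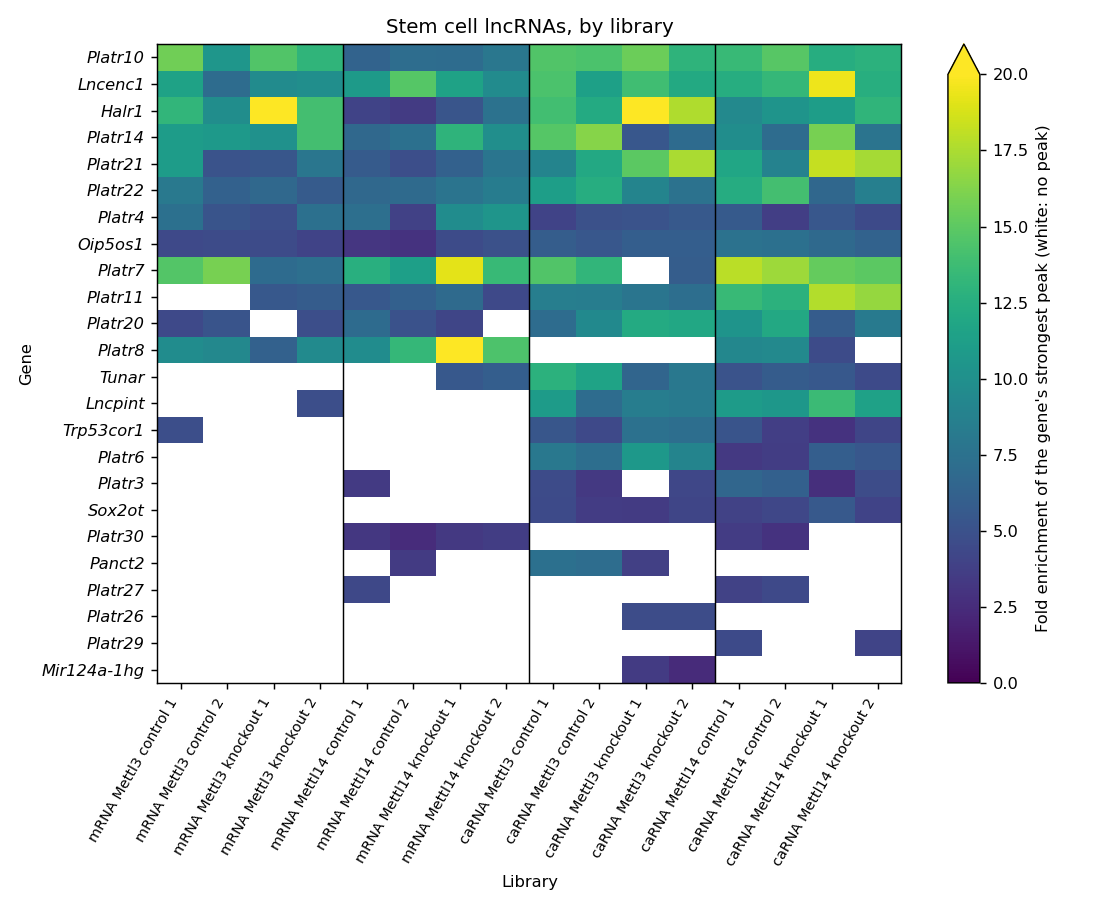
Fold enrichment of the strongest peak of each of the 24 marked stem cell lncRNAs (rows) in each of the 16 libraries (columns), with white where a list held no peak and vertical lines between the 4 comparisons. The 8 genes at the top have a peak in every library, and Platr6 and Sox2ot are examples marked in caRNA alone.

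The 8 genes marked in every library were Platr10, Lncenc1, Halr1, Platr14, Platr21, Platr22, Platr4 and Oip5os1. Halr1, a lncRNA of the Hoxa locus, had 13.1 and 9.77 against 21.2 and 14.1 in mRNA and 13.9 and 12.3 against 20.5 and 17.6 in caRNA of the Mettl3 line. In the Mettl14 line it had 3.99 and 3.47 against 5.29 and 7.51 in mRNA and 9.38 and 10.3 against 11.1 and 13.1 in caRNA. Both knockouts lay above both controls in each of these 4 comparisons, a pattern whose share among all genes was not counted. Platr14 went the other way in caRNA of the Mettl3 line alone, with 14.7 and 16.4 in its controls against 5.44 and 6.98 in its knockouts.

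Platr7 (chr10:84547417-84553338) had lower folds in the knockouts of the Mettl3 line in both fractions. Its strongest peak had 14.7 and 15.9 in the mRNA Mettl3 controls against 6.99 and 7.29 in their knockouts. In caRNA of that line it had 14.6 and 13.2 in the controls, no peak in knockout 1 and 5.89 in knockout 2. In the Mettl14 line it had 12.6 and 11.3 against 19.2 and 13.4 in mRNA and 17.9 and 17.1 against 15.2 and 14.9 in caRNA. The 3 Mettl3 knockout values were the lowest of the 15 libraries with a peak, the fourth Mettl3 knockout list held none, and Platr7 was singled out among the list after its values were seen.

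Several of the list were marked on chromatin only or almost only. Sox2ot, which overlaps the pluripotency gene Sox2, had folds between 3.51 and 5.62 in all 8 caRNA libraries and no mRNA peak. Platr6 had 3.29 to 10.6 in caRNA and no mRNA peak. Lncpint had 7.04 to 13.7 in caRNA and a single mRNA peak of 4.78, in Mettl3 knockout 2. Tunar, a lncRNA tied to pluripotency, had 4.50 to 12.9 in caRNA and 5.53 and 6.01 in mRNA of the 2 Mettl14 knockouts, with no other mRNA peak. Platr8 showed the opposite, with all 8 mRNA libraries marked (6.20 to 34.2) and, in caRNA, the 2 Mettl14 controls and 1 knockout.

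Among the other lists, Ftx was the 1 marked gene of the 3 of the X inactivation centre, with a fold between 3.81 and 9.27 in all 16 libraries. Ftx is a positive regulator of Xist, the RNA that coats the inactive X chromosome. The body of Xist (chrX:103460373-103483233) held 81 peaks over all 16 lists, but all of them also lay in Tsix, the antisense gene, so none was a member. Of 19 snoRNA host genes, whose introns encode small nucleolar RNAs, 8 were marked, and only Snhg14 in every library (5.37 to 16.3). Snhg11 was marked in 15, with 6.42 to 12.9 in caRNA and 4.77 to 6.01 in the 7 mRNA libraries that held it.

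Of 17 genes listed by name as microRNA hosts 8 were marked, of which Dleu2 and Mir22hg in every library and Pvt1 in 15. This list is not the set of 21 marked genes that held an annotated hairpin. Of its marked genes, Pvt1, Mirt1 and Mir124a-1hg are not in that set. Dleu2, the host of miR-16, had 7.52 and 10.9 against 13.5 and 13.3 in mRNA of the Mettl3 line, 5.15 and 4.56 against 10.2 and 8.06 in that of the Mettl14 line, 9.16 and 7.74 against 10.98 and 9.95 in caRNA of the Mettl3 line and 7.23 and 7.37 against 10.7 and 12.2 in that of the Mettl14 line. Its knockout folds were above both control folds in all 4 comparisons, and how many genes share this pattern was not counted. Mir22hg had folds from 5.51 to 13.1 over the 16 lists, with control and knockout values overlapping in 3 of the comparisons. Of 5 imprinted lncRNAs left by the rule 3 were marked, namely H19, Snhg14 and Igf2os. Igf2os was marked in all 8 mRNA libraries (4.61 to 11.2) and in caRNA of the Mettl14 line alone (3.74 to 6.64).

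Peaks in lncRNA genes lay on the strand opposite to the gene more often than peaks in protein-coding genes, in every library. RefSeq gave the strand of 903 of the 1168 genes, which held 8328 peaks, 6467 of them on the strand of the gene. The share on the gene's strand was 80.7% to 86.7% in the 8 mRNA libraries and 73.4% to 76.6% in the 8 caRNA libraries. In protein-coding genes it was 90.2% to 94.3% and 89.1% to 94.4%. The gap, lncRNA minus protein-coding, was -16.6 ± 1.79 percentage points in caRNA and -8.13 ± 1.84 in mRNA (SD, n = 8 each, exact permutation test, p = 0.00154, adjusted p = 0.0046). Knockouts had a gap of -13.5 and controls of -11.2, a difference of -2.29 points (exact permutation test, p = 0.0123, adjusted p = 0.0202). In 3 of the 4 comparisons both knockouts lay below both controls in this gap, and in mRNA of the Mettl3 line they overlapped. The 2 parts of the gap moved differently between comparisons. Mettl14 mRNA had lncRNA shares of 86.7% and 85.6% in controls against 80.7% and 80.9% in knockouts, and protein-coding shares of 91.9% and 91.2% against 90.2% and 90.5%. Mettl3 caRNA had lncRNA shares of 76.3% and 76.6% in controls against 74.3% and 75.3%, and protein-coding shares of 91.9% and 91.7% against 93.8% and 94.4%. Mettl14 caRNA had lncRNA shares of 73.4% and 74.4% in controls against 75.2% and 75.2%, so the lncRNA share was not lower there, and protein-coding shares of 89.1% and 89.1% against 91.7% and 91.8%.

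**Figure D5:**
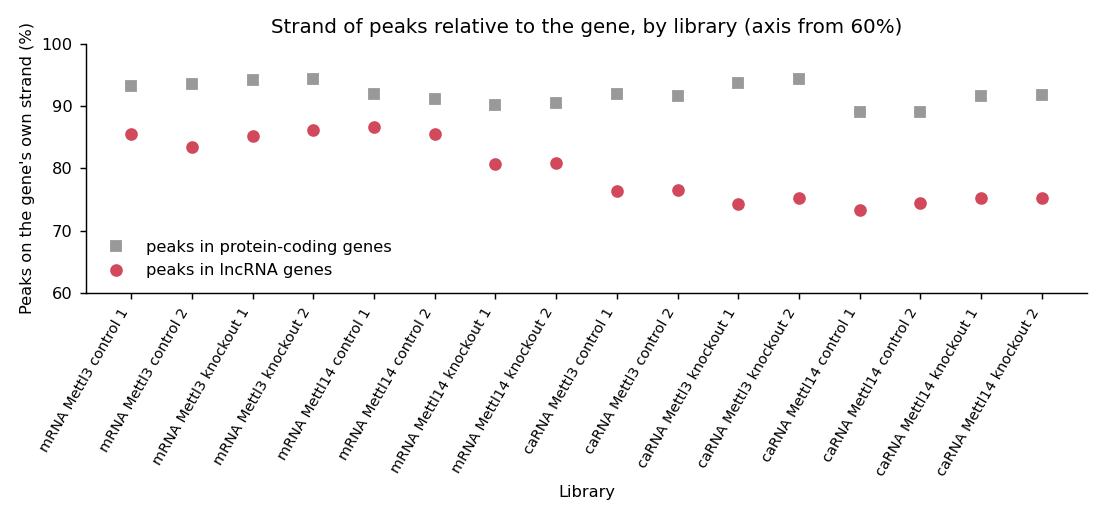
Percent of peaks on the gene's own strand (vertical axis, from 60%) in each of the 16 libraries (horizontal axis), for lncRNA genes (circles) and protein-coding genes (squares). LncRNA values are lower in every library and reach 73.4% to 76.6% in caRNA.

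Of the 903 genes with a strand, 581 had peaks on their own strand alone, 226 (25.0%) on the opposite strand alone and 96 on both. Of 1784 regions 498 (27.9%) were opposite, of those found in 1 list 138 of 457 (30.2%), and of those in all 16 lists 8 of 65 (12.3%). Such recurrent opposite-strand regions lay in Gm29538 (chr1:88459733-88460450, median fold 11.7), in B230209E15Rik (chr7:61572892-61573298, median fold 9.50) and at 2 places in Lncenc1 (chr13:97495017-97495878, median fold 11.1, and chr13:97466728-97467150, median fold 8.61). Of the 135 peaks in Lncenc1, 57 were on its own strand. For these genes the RNA that carried the mark need not be the annotated lncRNA. Among the opposite-strand peaks, between 8% and 22.0% per library lay within 10 kb downstream of a protein-coding gene on the strand of the peak, against 4.42% to 7.38% of the sense peaks. The part of such neighbours in the opposite-strand peaks was not tested.

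LncRNA peaks were narrower than protein-coding peaks in 15 of 16 lists, the exception being caRNA Mettl3 knockout 2, with a median wider by 0.5 bp. The difference in median width was -45.3 ± 19.1 bp in mRNA and -25.8 ± 14.2 bp in caRNA (SD, n = 8 each, exact permutation test, p = 0.00309, adjusted p = 0.00694). In mRNA lncRNA peaks ranked higher by fold within their list than protein-coding peaks, with a median 10.4 ± 2.86 percentile points higher, and in caRNA they did not, at -0.241 ± 4.88 points (exact permutation test, p = 0.00154, adjusted p = 0.0046). The caRNA lists split by line in this measure, with 0.610 to 7.90 in the Mettl3 line and -5.40 to -2.86 in the Mettl14 line.

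Along the gene, sense peaks of lncRNA genes were less often in the last 10% of the body than those of protein-coding genes, where messenger RNA has its stop codon and tail region. They were 17.7% to 23.4% in mRNA and 9.50% to 14.3% in caRNA, against 28.4% to 39.8% and 16.6% to 23.5% for protein-coding genes. The gap was -14.0 ± 2.23 points in mRNA and -8.53 ± 1.28 in caRNA (SD, n = 8 each, exact permutation test, p = 0.00154, adjusted p = 0.0046). Mean shares were 20.3% for lncRNA against 34.3% for protein-coding genes in mRNA, and 12.2% against 20.7% in caRNA. Both shares were thus smaller in caRNA, where a gap in points is smaller at the same proportion. The proportion itself was not tested. The gap in points was narrower in knockouts, at -10.3 against -12.3 in controls, with both knockouts above both controls in 4 of 4 comparisons (exact permutation test, p = 0.00154, adjusted p = 0.0046). Both classes had a smaller share there in the knockouts of all 4 comparisons, which by itself narrows a gap in points. Whether the lncRNA share fell less in proportion than the protein-coding share was not tested. In mRNA of the Mettl3 line, for example, the protein-coding share was 33.4% and 32.8% in controls and 28.6% and 28.4% in knockouts, and the lncRNA share 19.4% and 19.5% against 17.8% and 17.7%. In the first 10% of the body lay 6.81% to 13.0% of the lncRNA sense peaks in mRNA and 19.2% to 27.2% in caRNA. For protein-coding genes these were 6.41% to 11.8% and 13.7% to 15.9%, so the share was higher in caRNA for both classes.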

How the data were processed

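Each immunoprecipitation library had its own peak list from the authors, with strand, and replicates were not pooled. Per the submitters' processing notes, reads were handled with CASAVA, Trimmomatic 0.38, HISAT2 2.1.0 and SAMtools 1.9 on the mm10 build, and the caller of the peaks is not given in the sources used here. A deposited peak carries a fold enrichment, a ratio of immunoprecipitated signal over background, a −log10 p and a −log10 q, and a summit offset in bases, per the file headers and values. Other columns held no value used here. The lowest deposited −log10 q was 2.00 and the shortest peak 150 bp. The depth of the libraries is unknown, and no counting intervals are given.

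Gene bodies and types came from a RefSeq table of GRCm38.p6 with 49980 genes, and gene strands from the RefSeq promoter table. Peaks of the lists compared were merged by strand with at least 1 bp of overlap. Single values per library were tested by an exact two-sided permutation within strata of the other 2 factors (1296 relabellings) with Benjamini-Hochberg adjustment over 18 tests, in Python 3.11.15 with scipy 1.17.1, tested on simulated data first. An SD over 8 libraries spans several groups and is not the spread between replicates. Genes were named by rule, as the strongest of each call, those called in 2 comparisons and every marked gene of the fixed lists. The members and lists were chosen with earlier results of these data known, and the strand, last-tenth and downstream measures after the data were seen. Replicate numbers were shared by the groups. The fold deviations of same-numbered libraries correlated between -0.0063 and 0.00997 over retained regions, and no pairing was used in the main tests. Whether same-numbered libraries shared a batch cannot be told from these values or from the labels. The alternatives were a stricter q, equal list lengths, other gene, strand and overlap rules, the excluded genes put back, the replicate block and each library left out.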

Additional observations from a re-analysis of the deposited data

Results flagged for a closer look

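The knockout effect on lncRNA peaks differed between the lines within each fraction, Mettl14 effect minus Mettl3 effect. In mRNA the difference in the share of lncRNA peaks was 0.559 percentage points, between a Mettl3 effect of -0.251 and a Mettl14 effect of 0.307. In caRNA it was -0.360 points, between 0.124 and -0.236. For marked lncRNA genes it was 141 genes in mRNA, between -31 and 110, and -160.5 genes in caRNA, between 84.5 and -76. Every knockout library of one line lay on one side of its controls and every one of the other line on the other side. The differences were flagged because of this separation. Any such pattern gives p = 0.0556 in the exact permutation test, the smallest that 36 relabellings allow. The p-value was thus fixed by the selection, adds no support and cannot pass 0.05. At 10000 peaks per list the mRNA shares of control and knockout overlapped in both lines, and the caRNA shares did not.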

How the results depend on the processing

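Of the settings tried, 346 values kept their direction and their side of the threshold, or lay within 1.5 times for a count, 40 moved and 3 reversed. The reversed ones all concern the share of lncRNA peaks in knockouts against controls, -0.0141 points in the main setting and 0.0425 (p = 0.585, exact permutation) with the 10000 strongest peaks, 0.0498 (p = 0.438, exact permutation) with every lncRNA gene covering a summit and 0.000271 (p = 0.995, exact permutation) with the excluded genes put back. The cause was not tested.

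With the 10000 strongest peaks, where fewer peaks enter, lncRNA regions lost and gained were 10.8% and 13.3% in mRNA of the Mettl3 line and 10.6% and 11.3% in mRNA of the Mettl14 line, with 8.42% and 12.3% of genes there. Mettl3 caRNA had 40.3% of regions gained, with 23.9% of genes lost and 36.1% gained, and in caRNA of the Mettl14 line 12.5% of genes were gained. There were 6 genes in caRNA alone and 1 in mRNA alone. With every lncRNA gene covering a summit, losses in mRNA of the Mettl3 line were 12.3% of regions and 8.57% of genes, with 115 genes in caRNA alone and 5 in mRNA alone. With peaks on the gene's strand, losses in mRNA of the Mettl14 line were 1.72% of regions and 0.847% of genes. There were then 28 and 1 genes in 1 fraction alone, and genes without a RefSeq strand could not be counted. With summits within 100 nt, that loss was 8.76% of regions.

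The replicate block left the knockout difference at -0.0141 points (p = 0.898, exact permutation) and 21.9 genes (p = 0.492, exact permutation). The lost and gained calls do not use the block.

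Leaving out each library in turn requires 1 library fewer for a call, and so raised the lost and gained shares. For Mettl3 mRNA the lost share ran over 23.5% to 26.4% of regions and 20.3% to 22.8% of genes, and the gained share over 12.2% to 18.1% and 10.7% to 16.8%. For Mettl14 mRNA the lost share ran over 4.3% to 6.54% of regions and 2.78% to 6.67% of genes, and the gained share over 35.5% to 37.7% and 31.9% to 33.7%. For Mettl3 caRNA the lost share ran over 25.2% to 28.8% of regions and 15.3% to 19.8% of genes, and the gained share over 30.6% to 36.7% and 24% to 30.6%. For Mettl14 caRNA the lost share ran over 28% to 29.8% of regions and 20.1% to 22.1% of genes, and the gained share over 14.8% to 19.2% and 11.4% to 13.5%. The knockout difference in share ran from -0.0274 to -0.000766 points, the fraction difference from 0.439 to 0.465 and the line difference from 0.382 to 0.409. Genes in mRNA alone numbered 2 to 3.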
